A study of Mus musculus with 2 samples.

Results

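The 10 immediate early genes taken by symbol from the gene table are described here in mouse embryonic stem cells grown in 2 media: *Egr1*, *Fos*, *Fosb*, *Jun*, *Junb*, *Ier2*, *Ier3*, *Fosl1*, *Dusp1* and *Phlda1*. All 10 were found among the 32285 genes of the table. The cells were of the R1 line and grew in N2B27 medium for 72 hours, with 1 droplet library per medium. Cells labelled LB received LIF and BMP4 on gelatin. Cells labelled LBPXRS received LIF and BMP4 as well, with PD0325901 (an inhibitor of MEK, the kinase that activates ERK), Xav939 (a tankyrase inhibitor that lowers WNT signalling), SB431542 (an inhibitor of the NODAL and activin receptors) and a resorcyclic lactone, and grew on fibronectin. The 4 compounds and the substrate changed together and cannot be told apart. By its title, the study is about limits that FGF, TGF-β and WNT signalling set on the totipotent state that BMP4 induces. The immediate early genes bear on the FGF and ERK arm of that question.

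Immediate early genes are transcribed within minutes of a signal, from promoters that are already occupied, without new protein synthesis. ERK phosphorylates ELK factors bound with SRF at such promoters, while cAMP, calcium and stress signals reach them through CREB and the JNK and p38 kinases. Their mRNAs are short-lived, so their level follows recent signalling. Several of them also respond to cell dissociation, which every single-cell suspension undergoes.

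The kept cells numbered 1783 in LB, with a median of 25418 UMIs (unique molecular identifiers, counts of captured RNA molecules) per cell, and 2705 in LBPXRS, with a median of 19058. The libraries shared 8 barcodes among kept cells. Besides the media, they differed across chromosomes: 4 Y-linked genes had 2872 UMIs in LB and 1 in LBPXRS, and log2 ratios of LBPXRS over LB had a median of -0.61 over 453 genes of chromosome 8 and -0.63 over 707 genes of chromosome 11, against -0.21 to 0.0057 on the 18 other chromosomes with a median. *Junb* and *Ier2* lie on chromosome 8. Whether both cultures came from the same R1 clone is not given in the sources used here, and a difference between the cultures cannot be told apart from that between the media in any ratio of the libraries. The median over all 12618 genes with a mean of at least 1 CPM (UMIs per 1000000 UMIs) was -0.14, so a ratio of that size carries no direction. Each medium had 1 library, so no test across samples was possible. Intervals are exact 95% intervals and cover counting error only.

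The level of the 10 genes together was lower in LBPXRS. Their sum was 348 CPM (343 to 354) in LB, from 15831 UMIs, against 125 CPM (122 to 128) from 6474 UMIs in LBPXRS. The median cell had 7 of these UMIs in LB and 2 in LBPXRS, and 2.36% and 15.9% of cells had 0. *Ier2* alone supplied 49.2% and 50.7% of these. The genes did not move by a common factor: *Egr1*, *Phlda1* and *Jun* were lower in LBPXRS by factors of 18.6, 14.2 and 8.07, *Junb*, *Ier2*, *Fosb* and *Fos* by 3.77, 2.70, 3.91 and 2.35, *Ier3* by 1.29, and *Dusp1* was higher by 1.33. In bulk sums such as these, fewer cells with a gene's RNA and less RNA per cell cannot be told apart; shares of cells are given further on. The UMIs were counted from 3′ ends, which do not scale with transcript length.

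**Figure D1:**
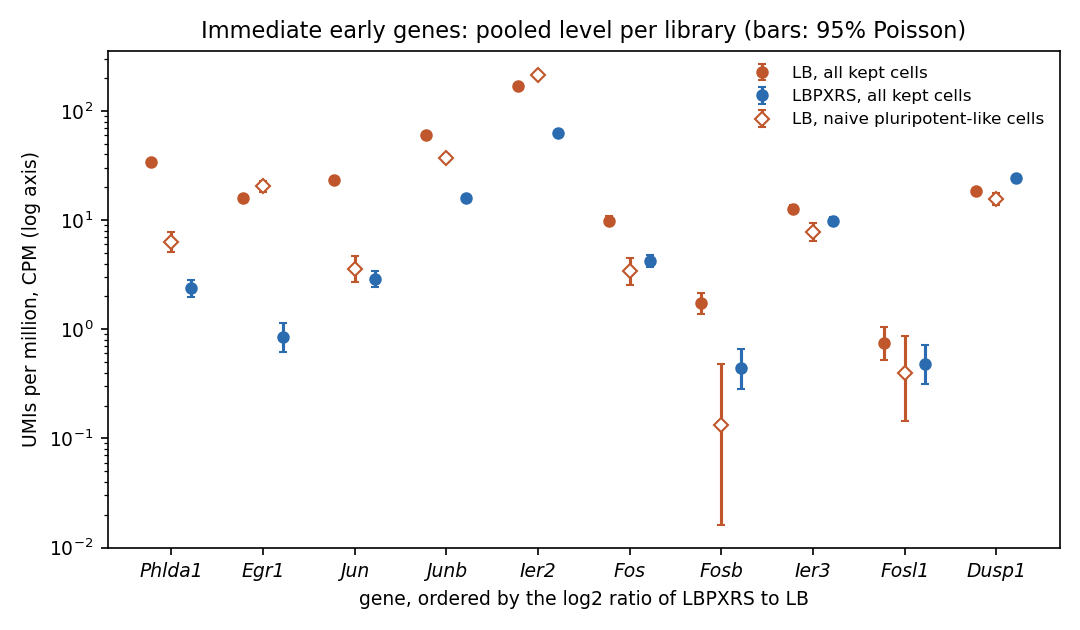
Pooled level of each immediate early gene in CPM on a log axis, with 95% Poisson intervals, for LB (filled orange circles), LBPXRS (filled blue circles) and the 528 naive pluripotent-like LB cells (open diamonds). *Egr1* was at 15.8 CPM in LB and 20.5 CPM in its naive pluripotent-like cells, against 0.849 CPM in LBPXRS, while for *Jun* and *Fos* the open diamonds lie close to LBPXRS.

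Of the 10 genes, 7 reached 10 CPM in either library, the minimum set for counting by size. A gene counts as at least 2-fold changed at a log2 ratio of 1 or more in size, with 1 CPM added to both levels. *Fos*, at 9.91 CPM in LB, fell just short of it, and *Fosb* and *Fosl1* were far below. Among the 7, 5 were at least 2-fold lower in LBPXRS (*Egr1*, *Jun*, *Junb*, *Ier2* and *Phlda1*) and 0 were at least 2-fold higher. Over all 7661 genes that reached this minimum, 10.4% were at least 2-fold lower and 7.98% at least 2-fold higher. With TMM scaling the shares over all genes changed to 7.80% lower and 10.2% higher, and the 5 genes were the same. A decrease of at least 4-fold was seen in 3 of the 7 (*Egr1*, *Jun* and *Phlda1*), against 2.88% of all genes, and 0 were at least 4-fold higher, against 2.04%. *Egr1*, *Jun*, *Phlda1* and *Ier3* reached the minimum only through LB, where they are higher, so these counts are a description and not evidence about the group. The median log2 ratio over the 9 members with a mean of at least 1 CPM was -1.42, with 8 below 0. Of all 12618 genes with such a mean, 7316 were below 0. Against the naive pluripotent-like LB cells alone, described further on, *Fosb* fell below a mean of 1 CPM. Without *Fosb* the median there was -0.68, or -0.46 with finer clusters. With *Fosb* kept in, the middle value is that of *Jun*, at -0.23, or -0.14 with finer clusters. *Dusp1*, *Fosb*, *Ier3*, *Fos* and *Fosl1* were above 0 in this comparison.

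*Egr1* (ENSMUSG00000038418, chr18:34859823-34864984, plus strand) encodes a zinc finger transcription factor that is a standard readout of ERK activity. In LB 719 UMIs gave 15.8 CPM (14.7 to 17.0), while 44 UMIs gave 0.849 CPM (0.617 to 1.14) in LBPXRS. The log2 ratio was -3.18. This is an 18.6-fold difference with a counting interval from 13.7 to 25.9. After each cell was thinned to 5000 UMIs, to compare cells at equal depth, 6.98% of 1733 LB cells (5.83 to 8.29) had an *Egr1* UMI, against 0.496% (0.264 to 0.847) of the 2621 from LBPXRS. Without thinning the shares were 21.4% and 1.55%. Up to 10 *Egr1* UMIs occurred in an LB cell, and 2 were the most in any LBPXRS cell.

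The AP-1 subunits followed. AP-1 is a dimer of leucine zipper proteins in which JUN proteins pair with each other or with FOS proteins. *Jun* (ENSMUSG00000052684, chr4:95049034-95052222, minus strand) stood at 23.3 CPM (21.96 to 24.8) in LB against 2.89 CPM (2.45 to 3.40) in LBPXRS, from 1062 and 150 UMIs. *Junb* (ENSMUSG00000052837, chr8:84974484-84978718, minus strand), a weaker activator than JUN, stood at 60.5 CPM (58.2 to 62.8) against 16.01 CPM (14.9 to 17.1). Their log2 ratios were -2.64 and -1.85. Relative to the median of chromosome 8 the *Junb* ratio was -1.24.

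*Fos* (ENSMUSG00000021250, chr12:85473890-85477273, plus strand), the classical immediate early gene, was lower by less than *Jun*. Its 451 UMIs in LB made 9.91 CPM (9.02 to 10.9), against 4.23 CPM (3.68 to 4.82) from 219 UMIs in LBPXRS. The log2 ratio was -1.06 and the fold difference 2.35 (1.99 to 2.77). *Fosb* (ENSMUSG00000003545, chr7:19302696-19310051, minus strand) was scarce, with 79 and 23 UMIs, 1.74 CPM (1.38 to 2.16) against 0.444 CPM (0.281 to 0.666). *Fosl1* (ENSMUSG00000024912, chr19:5447547-5455946, plus strand), which encodes FRA-1, had 34 and 25 UMIs. Its 1.55-fold difference had an interval from 0.898 to 2.71, so no difference in *Fosl1* was detectable at this depth.

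*Ier2* and *Ier3* are immediate early response genes that encode small proteins, a nuclear protein in the case of *Ier2* and a regulator of cell survival in that of *Ier3*. *Ier2* (ENSMUSG00000053560, chr8:84661331-84662852, minus strand) was the most abundant of the 10 in both libraries, with 171 CPM (167 to 175) in LB against 63.3 CPM (61.2 to 65.5) in LBPXRS. Its log2 ratio was -1.42, or -0.81 relative to the median of chromosome 8, which takes it out of the 2-fold range. *Ier3* (ENSMUSG00000003541, chr17:35821684-35822923, plus strand) had 12.7 CPM (11.7 to 13.8) and 9.88 CPM (9.04 to 10.8), a log2 ratio of -0.33. With DESeq2 size factors, which move the median of all genes to 0.024, the *Ier3* ratio was -0.17.

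*Dusp1* (ENSMUSG00000024190, chr17:26505590-26562128, minus strand) encodes a nuclear phosphatase that inactivates p38, JNK and ERK. It was the member with more RNA in LBPXRS, with 18.4 CPM (17.1 to 19.6) in LB against 24.4 CPM (23.1 to 25.8) in LBPXRS, a log2 ratio of 0.39. The fold of 1.33 had an interval from 1.22 to 1.45. *Phlda1* (ENSMUSG00000020205, chr10:111506286-111508645, plus strand), which encodes a pleckstrin homology-like domain protein, had 33.8 CPM (32.1 to 35.5) and 2.37 CPM (1.97 to 2.83). Its log2 ratio was -3.37 and its fold difference 14.2 (11.9 to 17.3). With a pseudocount of 0.1 CPM the ratio was -3.78, against -4.07 for *Egr1*, so their order depends on the pseudocount.

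The order of the levels therefore differed between the media. In LB it ran from *Ier2* through *Junb*, *Phlda1*, *Jun*, *Dusp1*, *Egr1*, *Ier3*, *Fos* and *Fosb* to *Fosl1*, and no neighbours in this order had overlapping intervals. In LBPXRS *Dusp1* came after *Ier2*, and *Junb*, *Ier3*, *Fos*, *Jun*, *Phlda1*, *Egr1*, *Fosl1* and *Fosb* followed. There the intervals of *Jun* and *Phlda1* overlapped, as did those of *Egr1* and *Fosl1* and of *Fosl1* and *Fosb*. Genes on the opposite strand overlap *Jun*, *Junb*, *Fosl1*, *Dusp1* and *Phlda1* in the annotation, among them *Prdx2* at *Junb* with 20984 and 16213 UMIs. Whether the counting used the strand is not given in the sources used here.

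The sequences before the start sites are shown for the AP-1 genes with the most RNA and for *Dusp1*, since these differ in the size and the sign of their log2 ratio. They are the 250 bases 5′ of the RefSeq start, 5′ to 3′, on GRCm38.p6, the patch level of mm10. Promoter entries matched 6 of the 10 members by symbol, and *Egr1*, *Ier2*, *Fosl1* and *Phlda1* were not matched. Capitals mark matches, on either strand, to the short CRE TGACG, the CArG box, the MEF2 box or the AP-1 site TGANTCA. The windows are chr12:85473640-85473889 (plus strand) for *Fos*, chr4:95052223-95052472 (minus strand) for *Jun*, chr8:84978749-84978998 (minus strand) for *Junb* and chr17:26508473-26508722 (minus strand) for *Dusp1*. The *Dusp1* window lies inside the gene span given above, whose 5′ end differs from the RefSeq start.
Fos: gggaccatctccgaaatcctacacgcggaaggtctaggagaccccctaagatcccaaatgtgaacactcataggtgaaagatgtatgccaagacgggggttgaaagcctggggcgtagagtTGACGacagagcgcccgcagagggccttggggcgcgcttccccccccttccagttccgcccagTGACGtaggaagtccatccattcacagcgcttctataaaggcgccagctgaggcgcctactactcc
Jun: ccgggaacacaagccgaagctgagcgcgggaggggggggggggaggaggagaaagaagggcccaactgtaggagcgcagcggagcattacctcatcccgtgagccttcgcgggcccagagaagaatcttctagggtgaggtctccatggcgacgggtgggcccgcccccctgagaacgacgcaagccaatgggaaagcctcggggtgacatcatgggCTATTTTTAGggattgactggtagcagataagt
Junb: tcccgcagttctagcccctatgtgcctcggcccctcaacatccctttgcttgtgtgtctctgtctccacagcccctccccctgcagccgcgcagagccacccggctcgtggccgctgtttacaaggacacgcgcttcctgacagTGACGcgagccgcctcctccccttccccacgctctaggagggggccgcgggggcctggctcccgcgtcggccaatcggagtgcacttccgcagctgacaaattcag
Dusp1: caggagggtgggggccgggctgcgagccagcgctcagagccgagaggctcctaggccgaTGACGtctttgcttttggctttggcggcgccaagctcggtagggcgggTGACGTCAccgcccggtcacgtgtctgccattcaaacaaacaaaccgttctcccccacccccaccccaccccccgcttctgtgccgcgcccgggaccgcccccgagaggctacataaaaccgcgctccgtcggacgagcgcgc

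The short CRE TGACG, which is contained in the full palindrome TGACGTCA, was present in 2 copies in the *Fos* window, the first bases at -129 and -66 from the start, in 1 copy in *Junb* at -106, and in 3 copies in *Dusp1*, 2 of which overlap in the full palindrome at -143. In *Jun* none was found, and its capitals mark a MEF2 box at -33. Among 32851 promoter windows of this length, 17.8% held TGACG, 1.55% the full palindrome, 2.92% a MEF2 box, 1.47% a CArG box and 6.75% TGANTCA. No CArG box and no TGANTCA lay in the windows of the 6 matched members. A match is a description of letters, and a missing match says only that these letters are not in this window.

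At equal depth, an *Ier2* UMI was present in 52.9% (50.5 to 55.2) of cells from LB against 26.1% (24.4 to 27.8) from LBPXRS. For *Junb* the shares were 23.3% (21.3 to 25.4) and 7.29% (6.32 to 8.35). *Jun* was found in 9.002% (7.70 to 10.4) and 1.22% (0.837 to 1.72), and *Phlda1* in 8.48% (7.21 to 9.89) and 1.11% (0.742 to 1.58). These 4 intervals are apart, as are those of *Egr1* and of *Fos*, which was found in 4.44% (3.52 to 5.52) and 1.91% (1.42 to 2.51). The share of all genes with intervals apart was not counted. The shares of *Ier3*, 5.66% (4.61 to 6.85) and 4.24% (3.50 to 5.08), had overlapping intervals. So had those of *Dusp1*, 8.83% (7.53 to 10.3) and 10.8% (9.63 to 12.05), of *Fosb*, 0.981% (0.573 to 1.57) and 0.305% (0.132 to 0.6005), and of *Fosl1*, 0.462% and 0.305%. Without thinning, the share of cells with *Dusp1* was 32.1% in LB and 27.5% in LBPXRS, the other way from its CPM, so no order is read from it. Unthinned shares of *Ier2* were 90.4% and 62.2%, and of *Junb* 56.9% and 23.9%. No cell type in these libraries is known to lack these genes, so a share due to free RNA was not measured.

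**Figure D2:**
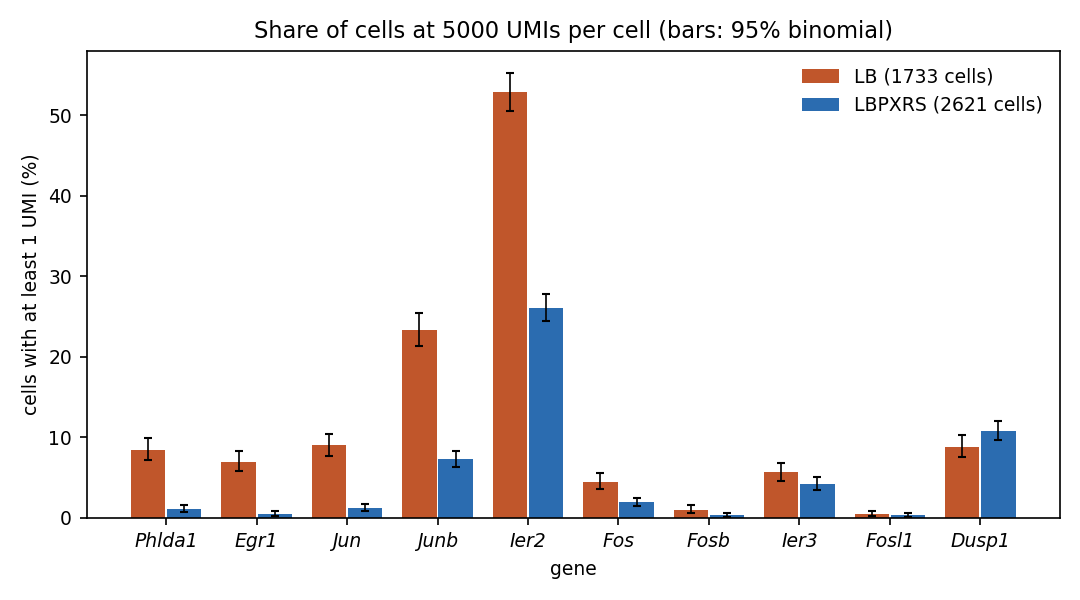
Share of cells with at least 1 UMI of each gene (vertical axis, percent) after thinning to 5000 UMIs per cell, in 1733 LB cells (orange) and 2621 LBPXRS cells (blue), with 95% binomial intervals. *Ier2* was in 52.9% and 26.1% of cells, and *Dusp1* in 8.83% and 10.8%, with overlapping intervals, as had *Ier3*, *Fosb* and *Fosl1*.

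The RNA of some members was concentrated in few LB cells. *Phlda1* had up to 81 UMIs in a cell, and the 5% of LB cells with the most held 73.5% of its UMIs. Cells with at least 5 *Phlda1* UMIs made up 4.15% of LB (74 cells), and there were 0 in LBPXRS. *Fos* reached 33 UMIs in an LB cell and 3 in an LBPXRS cell, and the top 5% of LB cells held 67.2% of its UMIs. In LBPXRS the top 5% of cells held 75.3% of its UMIs. This share also depends on how scarce a gene is, and for *Ier2*, the most abundant, it was 17.2% in LB and 20.4% in LBPXRS. At equal depth the variance of *Phlda1* was 3.48 times its mean in LB, against 1.65 for *Jun* and 1.29 to 1.38 for *Egr1*, *Fos*, *Junb*, *Ier2*, *Ier3* and *Dusp1*. In LBPXRS this ratio was 1.22 for *Dusp1*, 1.14 for *Ier2* and below 1.1 for the others, where a ratio near 1 is what counting alone gives.

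Clusters were formed within each library from variable genes that excluded the 10 members and the lists of other immediate early, ERK feedback and heat shock genes given further on. In LB, cluster 1 (528 cells) was naive pluripotent-like, cluster 2 (356 cells) mesoderm-like, cluster 4 (251 cells, with the interferon genes *Isg15* and *Rtp4* among its leading genes) primitive streak-like, and cluster 7 (58 cells, led by genes such as *Esx1* and *Tfap2a* with the chemokines *Cxcl10* and *Ccl2*) trophoblast-like. Clusters 3, 5 and 6 had no name, and were led by *Pim2*, *Fgf5* and *Dnmt3b*, by *Fabp3*, *Calb2* and *Nkx6-2*, and by *Slc7a3*, *Pmel* and *Spp1*. Cluster 8 held 19 cells with almost no mitochondrial RNA and is not used below. The cells labelled embryonic stem cells thus included other states in LB. No LBPXRS cluster had a name. All values by cluster come from 1 library each.

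The members divided among the LB clusters in different ways. *Phlda1* was at 232 CPM (211 to 254) in trophoblast-like cluster 7 and 94.0 CPM (87.6 to 101) in mesoderm-like cluster 2, and between 5.38 and 11 CPM in the other 5 clusters. Those 2 clusters held 29.7% and 52.7% of its UMIs. *Jun* followed a like course, with 93.3 CPM in cluster 7 (80.3 to 108), 45.9 CPM in cluster 2, 31.2 CPM in cluster 3 and 25.1 CPM in cluster 4, against 3.57 CPM (2.68 to 4.66) in naive pluripotent-like cluster 1. *Fos* was highest in cluster 7 at 32.5 CPM (24.99 to 41.4), with 19.5 CPM in primitive streak-like cluster 4 and 3.44 CPM in cluster 1. *Junb* ranged from 37.1 CPM in cluster 1 to 149 CPM in cluster 7. *Fosb* had 2 UMIs in cluster 1 and 0 in clusters 5 and 6, with 4.10 CPM in cluster 3 and 5.07 CPM, from 10 UMIs, in cluster 7.

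*Egr1* and *Ier2* were distributed differently. *Egr1* was highest in cluster 3 at 24.5 CPM (21.1 to 28.3) and in cluster 1 at 20.5 CPM (18.3 to 22.9), and lowest in cluster 4 at 7.39 CPM (5.31 to 10.0). Cluster 1 held 43.1% of its UMIs. *Ier2* stood at 214 CPM in cluster 1 and 113 CPM in cluster 4. *Ier3* was highest in cluster 4 at 27.4 CPM (23.2 to 32.1). *Dusp1* was lowest in mesoderm-like cluster 2 at 8.35 CPM (6.54 to 10.5), with 35.7 CPM in cluster 5 and 45.7 CPM (31.7 to 63.9) in cluster 6, whose median mitochondrial share of 6.74% was the highest of the LB clusters. The part of that share in the *Dusp1* level was not tested.

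Among the 7 LBPXRS clusters *Egr1* lay between 0 and 1.37 CPM, below every LB cluster of at least 50 cells, where it was 7.39 CPM or more. The ranges of *Junb* (12.8 to 30.8 CPM against 37.1 to 149), *Ier2* (38.2 to 87.3 against 113 to 240) and *Phlda1* (0 to 3.40 against 5.38 to 232) did not overlap in value either. The counting intervals at their edges do overlap, since LBPXRS cluster 7 allows up to 9.47 CPM of *Egr1* and *Phlda1* at 0 UMIs and *Phlda1* in LB cluster 6 rests on 4 UMIs (1.47 to 13.8). In LBPXRS cluster 7 *Junb* (15.9 to 53.8) and *Ier2* (60.5 to 122) likewise reach into the LB range. The ranges of *Jun*, *Fos*, *Fosb*, *Ier3*, *Fosl1* and *Dusp1* overlapped. The share of all genes with ranges apart was not counted, so these ranges are a description. *Junb* and *Ier2* lie on chromosome 8, whose shift is not taken out here. *Dusp1* also varied within LBPXRS: it was at 52.0 CPM in cluster 2 (led by *Gata2*, *Bhlhe41* and *Dusp4*), which held 45.4% of its UMIs, against 12.8 CPM (11.1 to 14.8) in cluster 1 (led by *Krt8* and *Krt18*). At equal depth 20.2% of cells in cluster 2 had a *Dusp1* UMI and 6.97% in cluster 1. Cluster 2 was also the lowest in *Ier2*, at 38.2 CPM, and in *Ier3*, at 5.52 CPM. Cluster 7, with a median of 3424 UMIs and 0.0448% mitochondrial UMIs, had *Dusp1* at 77.0 CPM (52.0 to 110) from 30 UMIs.

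**Figure D3:**
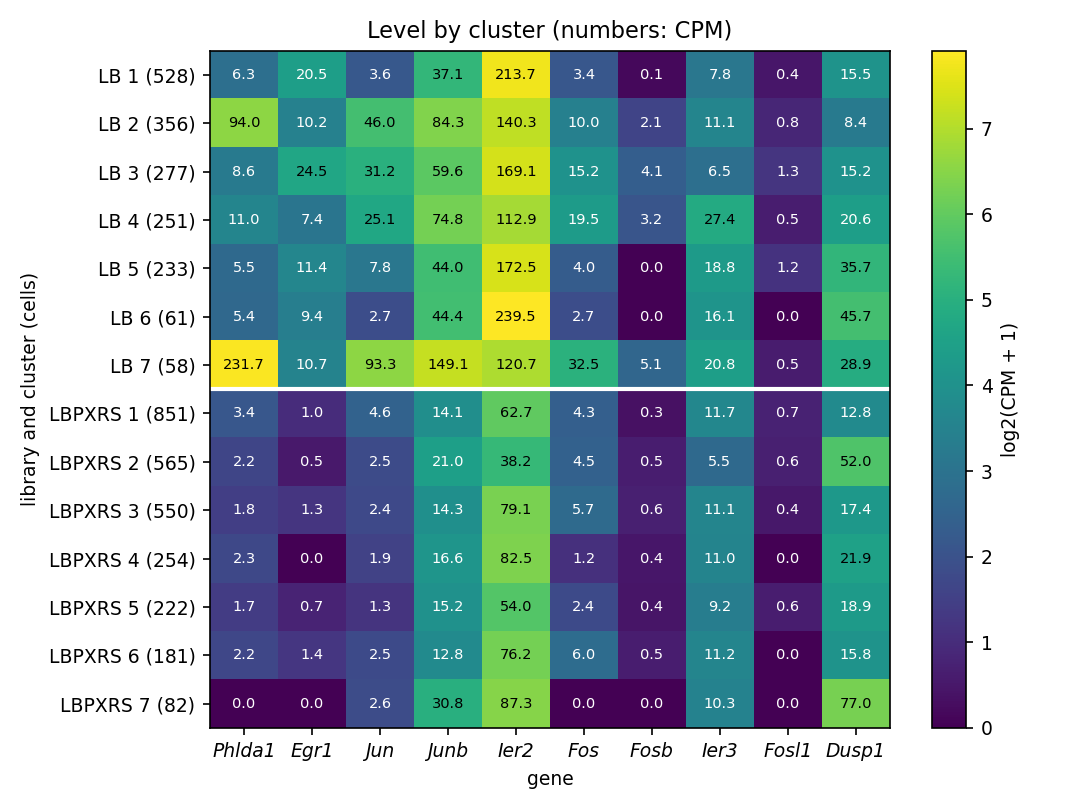
Level of each gene (columns) in each cluster of at least 50 cells (rows, with the number of cells), LB above the white line and LBPXRS under it. Numbers are CPM and colour is log2(CPM + 1). *Phlda1* and *Jun* peak in LB cluster 7 at 232 and 93.3 CPM, *Egr1* lies at or under 1.37 CPM in every LBPXRS cluster, and *Dusp1* reaches 52.0 CPM in LBPXRS cluster 2.

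Against the 528 naive pluripotent-like LB cells alone, the members differed from LBPXRS in both directions. *Egr1* was 24.2-fold higher in these cells than in LBPXRS (17.6 to 33.9), *Ier2* 3.38-fold (3.21 to 3.54), *Phlda1* 2.68-fold (2.03 to 3.52) and *Junb* 2.32-fold (2.08 to 2.58). By contrast *Jun*, at 3.57 CPM in these cells and 2.89 CPM in LBPXRS, and *Fos*, at 3.44 and 4.23 CPM, had fold intervals that include 1 (0.887 to 1.69 for *Jun*, and 0.904 to 1.70 for *Fos*, which was the higher in LBPXRS). *Dusp1* was 1.57-fold higher in LBPXRS (1.37 to 1.82) and *Ier3* 1.27-fold (1.03 to 1.56). Of the 4 members at 10 CPM or more in either, 3 (*Egr1*, *Junb* and *Ier2*) were at least 2-fold lower in LBPXRS, against 7.01% of 7285 genes, and 0 were at least 2-fold higher, against 9.92%. *Egr1* reached the minimum only through the LB cells, and *Junb* and *Ier2* lie on chromosome 8, whose shift is not taken out of these values, so this count too is a description. The cells were named from naive markers in LB, and *Phlda1*, at 6.35 CPM in these cells, lies under the minimum. With clusters at resolution 1, a setting added after the data were seen, the naive pluripotent-like cells numbered 237, *Phlda1* was 2.04-fold higher in them (1.35 to 3.01) and *Egr1* 22.7-fold (16.02 to 32.6).

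LB cells held more of the members each. Higher shares of single genes raise this count by themselves, so it is no measure of co-expression. At 5000 UMIs per cell, LB cells had 1.21 of the 10 members on average and LBPXRS cells 0.538. At least 1 member was present in 74.4% (72.3 to 76.4) of LB and 44.4% (42.5 to 46.3) of LBPXRS. At least 3 were found in 10.7% (9.26 to 12.2) and 0.839% (0.527 to 1.27). The most in a cell was 6 in LB and 3 in LBPXRS, and 0 of 2621 LBPXRS cells had 5 or more, with an exact upper limit of 0.141%. Within LB the share of cells with at least 3 members was 4.95% in cluster 1 (3.26 to 7.17), 10.2% to 14.1% in clusters 2 to 5, 5.36% (1.12 to 14.9) in cluster 6, and 22 of 56 cells, or 39.3% (26.5 to 53.2), in cluster 7. With the cells of a library divided evenly into 3 by mitochondrial share, the averages were 1.20 to 1.23 in LB and 0.498 to 0.593 in LBPXRS. Divided by depth before thinning, they were 1.15 to 1.28 and 0.512 to 0.571.

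**Figure D4:**
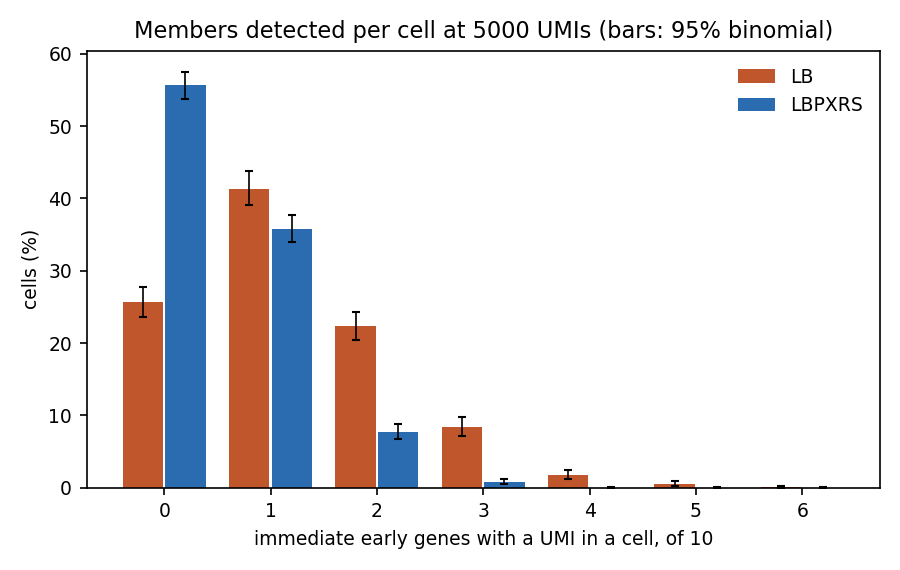
Number of the 10 immediate early genes with a UMI per cell (horizontal axis) and the percent of cells (vertical axis) after thinning to 5000 UMIs, LB in orange and LBPXRS in blue, with 95% binomial intervals. Cells with 0 members made up 25.6% of LB and 55.6% of LBPXRS.

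Within cells, co-expression was weak in both libraries at this depth. Among the 7 members found in at least 5% of thinned LB cells, the median Pearson correlation of log-transformed UMIs over 21 pairs was 0.037 and the median odds ratio of being found together 1.34. Over all 23981275 pairs of the 6926 genes found that often, the medians were 0.0020 and 1.02. In LBPXRS 3 members (*Junb*, *Ier2* and *Dusp1*) were found that often, and their 3 pairs had medians of 0.013 and 1.20, beside 0.0016 and 1.01 over all pairs. At 10000 UMIs per cell *Junb* with *Ier2* turned to a correlation of -0.031 and an odds ratio of 0.744, and *Ier2* with *Dusp1* stood at -0.069 and 0.729, so no direction is read from these 3 pairs. The pairs with scarcer members met in too few LBPXRS cells to compare with LB. These are descriptions over cells that share a library and, after thinning, a depth.

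In LB 3 of the 45 pairs had a correlation of at least 0.1: *Junb* with *Phlda1* (0.13), *Fos* with *Jun* (0.12) and *Jun* with *Phlda1* (0.11). Over all pairs of genes found in at least 5% of thinned LB cells, 0.458% reached 0.1. *Fos*, in 4.44% of cells, is not among those genes. The order of the 3 pairs depends on the thinning. With another random draw *Jun* with *Phlda1* was at 0.15, *Egr1* with *Ier2* at 0.13, and *Junb* with *Phlda1* and *Fos* with *Jun* at 0.11 and 0.10. At 10000 UMIs *Fos* with *Fosb* and *Jun* with *Phlda1* were both at 0.18. *Fos* and *Jun* were found together in 18 of 1733 cells, where the product of their shares gives 6.93, an odds ratio of 3.41. *Jun* and *Phlda1* met in 27 cells against 13.2, an odds ratio of 2.57. *Egr1* met *Junb* in 45 cells against 28.2, an odds ratio of 2.07. With cluster means removed, *Jun* with *Phlda1* had a correlation of 0.029 and *Junb* with *Phlda1* of 0.075, while *Fos* with *Jun* stood at 0.10, *Egr1* with *Junb* at 0.11 and *Junb* with *Ier2* at 0.11. In LBPXRS the highest correlations, *Fosb* with *Jun* and *Jun* with *Phlda1*, rested on 1 and 2 cells.

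The genes whose UMIs went most with the summed members in LB cells, of 6926 ranked over 1733 cells, were *Ccn1* (a correlation of 0.19), *Krt8*, *Tagln*, *Krt18*, *Tnfrsf12a*, *Tpm1*, *Anxa3* and *Tuba1a* (0.15). With cluster means removed *Ccn1* was at 0.14 and *Tnfrsf12a* at 0.13, and *Krt18* at 0.090. In LBPXRS the 8 highest, from *Eno1* at 0.088 and *Npm1* at 0.084 to *Sub1* at 0.072, shared 0 genes with those of LB. With 6649 genes ranked there, unrelated lists of 8 would mostly share 0 as well, so no difference is read from this. Both lists take the highest of many correlations, which raises these values by selection.

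Other genes of the pathway differed by class. Among 11 ERK feedback genes, which encode phosphatases, Sprouty and Spred proteins and ETV factors that ERK signalling induces, 6 of the 7 at 10 CPM or more were at least 2-fold lower in LBPXRS and 0 higher, beside 10.4% and 7.98% of all genes, and the median log2 ratio was -1.85. Several of the 6, among them *Dusp6*, *Etv4* and *Spred1*, reached 10 CPM only through LB, so the count is a description. The lowest were *Dusp6* (18.0 and 0.868 CPM, a log2 ratio of -3.35), *Etv4* (-2.52) and *Spred1* (-2.37), and the highest *Etv5* at -0.68, *Dusp4* at -1.03 and *Spry2* at -1.04. *Dusp4* lies on chromosome 8, and relative to that chromosome's median of -0.61 it is not 2-fold lower. *Etv4* and *Spred2*, another of the 6, lie on chromosome 11, whose median of -0.63 is not taken out of their ratios. The 44 other immediate early genes went both ways around a median of -0.46: of 26 at 10 CPM or more, 9 were at least 2-fold lower and 1 at least 2-fold higher, beside the same 10.4% and 7.98% of all genes. Most of the 9, *Myc* and *Ier5* among them, reached 10 CPM only through LB, and the 1 higher, *Gadd45g*, only through LBPXRS. Against the naive pluripotent-like LB cells alone the median of this list was 0.22. *Myc* was at 13.2 and 0.154 CPM (-3.62), *Ier5* at -1.93 and *Zfp36l2*, an RNA-binding protein gene, at -1.85. The growth arrest gene *Gadd45g* had 9.14 and 25.5 CPM (1.39), and *Gadd45b* and the antiproliferative gene *Tob1* stood at 0.96 and 0.93. *Tob1* lies on chromosome 11, and relative to that chromosome's median of -0.63 it is more than 2-fold higher.

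Genes of the transducers themselves went both ways. Among 25 genes of the ERK cascade and of immediate early regulators, 15 reached 10 CPM and 1 was at least 2-fold lower, *Creb1* at -1.06, which reached the minimum only through LB. None of the 15 was at least 2-fold higher, and over all genes the shares were 10.4% lower and 7.98% higher. Their median log2 ratio was -0.23, and -0.075 with TMM scaling. The ERK1 gene *Mapk3* stood at -0.74, *Srf* at -0.69, and *Map2k1*, which encodes MEK1, at 0.41. *Map2k2*, which encodes MEK2, the other target of PD0325901, stood at -0.27 and is named here outside the rule, after its value was seen. *Rps6ka1* and *Rps6ka2*, kinases downstream of ERK, stood at 0.54 and 0.62. Of 18 ligands, receptors and adaptors upstream of ERK, 8 reached 10 CPM, of which 1 was at least 2-fold lower (*Fgf8*, which reached the minimum only through LB) and 1 higher, beside the same 10.4% and 7.98%. Their median was -0.46, and 0.21 against the naive pluripotent-like LB cells alone. *Fgf8* had 113 and 0.733 CPM (-6.04), *Fgfr1*, also on chromosome 8, stood at -0.95 and *Ptpn11* at -0.78. *Fgf4* went the other way, with 39.5 and 205 CPM (2.35), *Kit* stood at 0.92 and *Grb2*, on chromosome 11, at -0.11.

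Heat shock genes, which also respond to dissociation, had a median of -0.42, with 3 of 11 at least 2-fold lower (*Bag3* at -1.95, *Hspa8* at -1.12 and *Dnajb1* at -1.02) and 0 higher, beside 10.4% and 7.98% of all genes. *Bag3* reached 10 CPM only through LB, and *Dnajb1* lies on chromosome 8, relative to whose median of -0.61 it is not 2-fold lower. *Hspb1*, *Cryab* and *Hsp90aa1* stood at 0.54, 0.49 and 0.49. *Hspa1a* and *Hspa1b*, the inducible HSP70 genes, were near 0 in both, at 1.32 and 1.39 CPM for *Hspa1a* and 1.30 and 0.482 CPM for *Hspa1b*. The 13 genes summed to 9432 CPM in LB and 8237 CPM in LBPXRS. Over the 7 larger LB clusters this sum ran from 7906 CPM in cluster 2 to 14578 CPM in cluster 6, and it was 8739 CPM in cluster 7, where the members were highest. The part of handling in the levels of the immediate early genes was not tested.

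**Figure D5:**
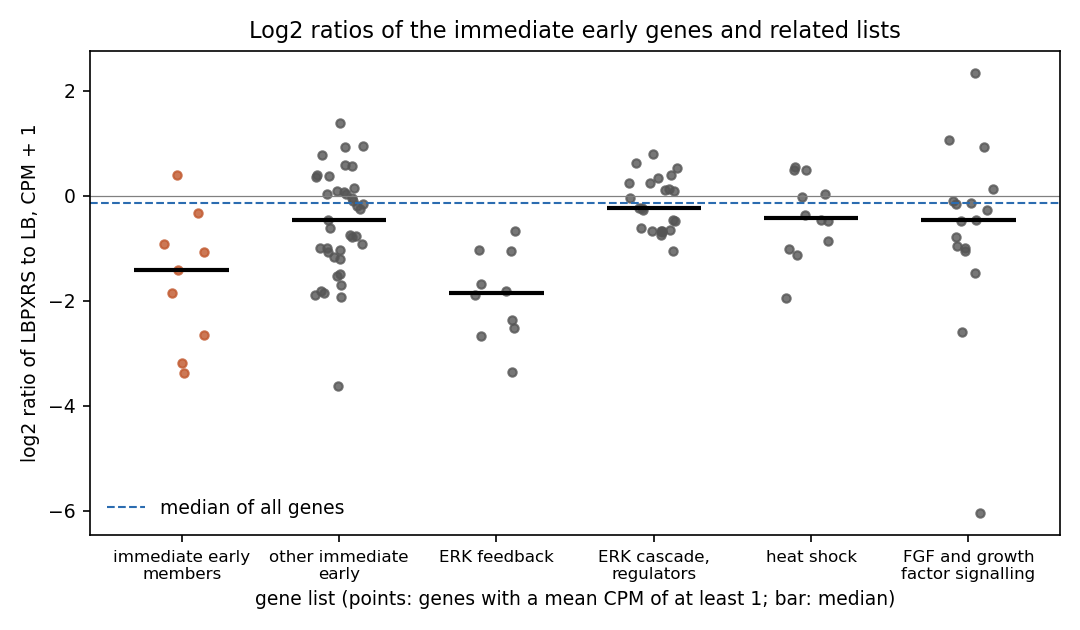
Log2 ratio of LBPXRS to LB (vertical axis) for each gene with a mean of at least 1 CPM in the immediate early members (orange) and 5 related lists (grey), with the median of each list as a bar. The blue dashed line is the median of all genes at -0.14; ERK feedback genes have a median of -1.85 and the members -1.42.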

How the data were processed

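The deposited matrices hold UMI counts per gene and barcode, made by the authors. The file headers give Cell Ranger 4.0.0; the genome was mm10 per the submitters' processing notes. The libraries used 10x 3′ version 2 chemistry per the labels' protocols. The annotation and the cell calling settings are not given in the sources used here. Gene positions come from GENCODE release M21 (GRCm38), which held 32158 of the identifiers.

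Barcodes with fewer than 1000 genes or more than 10% mitochondrial UMIs were left out (225 of 2008 in LB, 406 of 3111 in LBPXRS). Scrublet marked 12 and 14 kept cells, so few that doublets may have been missed; they were kept. Log2 ratios compare CPM after adding 1 to both levels, LBPXRS over LB, and this pseudocount understates changes of low genes. Folds are ratios of CPM. Intervals for levels are Poisson, for folds conditional binomial, and for shares Clopper-Pearson. Thinning to 5000 UMIs left 1733 and 2621 cells deep enough. Odds ratios had 0.5 added to each cell of the table.

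Clusters came from scanpy 1.11.5 (2000 variable genes less the lists, 30 principal components, 15 neighbours, Leiden resolution 0.5). A name needed at least 3 markers of 1 class, the most of any class, at 5 CPM or more and a log2 ratio of at least 1 against the library's other cells, a median of the class's markers of at least 1, and leading genes that did not favour another class. From each related list the 3 highest and 3 lowest ratios at 10 CPM or more are named, and *Hspa1a* and *Hspa1b* were added later, as were the genes named to describe clusters. Likeness names the 8 genes with the highest correlation per library. The members, lists, markers and thresholds were chosen with earlier results of these data known. The steps were tested on simulated counts. Alternatives used edgeR 4.0.16 and DESeq2 1.42.0 for scaling factors only.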

Additional observations from a re-analysis of the deposited data

Results flagged for a closer look

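Immediate early UMIs were also present in the barcodes that the filter left out, data that no comparison above uses. In LB, 225 such barcodes with a median of 1801 UMIs held 263 UMIs of the 10 genes, 355 CPM (314 to 401), close to the 348 CPM of the kept cells. In LBPXRS, 406 barcodes with a median of 1043 UMIs held 140, or 192 CPM (162 to 227), above the 125 CPM of the kept cells. Both lie above what 3 counts would give, 4.05 and 4.12 CPM.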

How the results depend on the processing

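*Egr1*, *Jun*, *Junb*, *Ier2*, *Phlda1* and *Dusp1* kept the sign of their log2 ratio in all 9 alternatives run for single genes, and *Fos*, *Fosb*, *Ier3* and *Fosl1* in 8. The exception for these 4 was the restriction of LB to naive pluripotent-like cells, under which they stood at 0.23, 0.35, 0.31 and 0.086. Under that restriction *Jun* stood at -0.23 and the count of members at least 2-fold lower at 3 of 4. The members' median was -0.68 (-0.46 with clusters at resolution 1), without *Fosb*, which fell below a mean of 1 CPM. With *Fosb* kept in, the middle value is that of *Jun*. Medians of the other lists, over genes that reached that mean there, were 0.22 for other immediate early genes and 0.21 for genes upstream of ERK. They were -0.11 for the ERK cascade, -0.42 for heat shock genes and -1.65 for ERK feedback genes. The members' median of -1.42 became -1.27 with TMM scaling, -1.24 with DESeq2 size factors, -1.76 with a pseudocount of 0.1 CPM, -1.24 with no minimum level and -1.06 without the 2 members on chromosome 8, the last added after the data were seen. TMM scaling moved the median of all genes to 0.0031. With TMM scaling and DESeq2 size factors the ERK cascade median was -0.075 and -0.048, and the heat shock median -0.27 and -0.24. A pseudocount of 0.1 CPM gave an ERK feedback median of -2.50, and no minimum level gave -0.20 for other immediate early genes and -0.47 for heat shock genes.

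The share of cells with at least 3 members was 2.15% in LB and 0.112% in LBPXRS at 2500 UMIs per cell, and 26.0% and 4.06% at 10000, since more UMIs find more genes. The median odds ratio over all 45 pairs, 1.38 in LB and 1.24 in LBPXRS, was 1.88 and 2.94 at 2500 UMIs, where the 0.5 added to each cell weighs most on rare pairs, and 1.62 and 1.25 with another random draw. The median correlation over these pairs, 0.021 in LB and -0.0047 in LBPXRS, was -0.0014 and -0.0038 at 2500 UMIs. No paired analysis was possible because each medium had 1 library. Without cells under 0.5% mitochondrial UMIs the members' median was -1.41. Depth limits *Fosb* and *Fosl1* throughout.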
